A study of Rattus norvegicus with 15 samples.

Results

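The enzymes and the transporter of glucose production were followed in the intestine of rats after Roux-en-Y gastric bypass (RYGB), as 7 genes: G6pc, Fbp1, Fbp2, Pck1, Pck2, Pc and Slc37a4. The members were all noncontrol probes whose gene name in the array files is one of these 7 symbols, which gave 12 of the 41012 probes on the array, each read apart (the gene now called G6pc1 is written G6pc there). All 12 passed the filter on dim probes, as did 17029 probes of 13024 genes in all. The report covers 15 male rats with 1 array per rat, 5 in each of 3 groups. Wistar rats were not operated on. The other groups, GK-Sham-PF and GK-S-30, were both of the Goto-Kakizaki (GK) strain, a nonobese diabetic strain bred from Wistar rats, and both were operated on at 16 wk of age. GK-Sham-PF rats had a sham operation, with the jejunum cut and rejoined 16 cm from the ligament of Treitz. They were pair-fed to the bypass group of the study that ate least, usually a group that is not in this report. GK-S-30 rats had RYGB with a Roux limb (RL, the piece of jejunum joined to the stomach pouch) of 30 cm. Tissue was taken 14 wk after the operations from rats fasted overnight, as a 5-cm piece lying 5 cm below the gastric join in GK-S-30 rats and 21 to 26 cm from the ligament of Treitz in the other groups. Strain, sham operation and pair-feeding therefore cannot be told apart in GK-Sham-PF vs Wistar. The RL began at a cut 16 cm from the ligament of Treitz, so its piece came from the stretch of jejunum that matches the control pieces. After the operation that piece lay below the stomach pouch, and the control pieces stayed in their usual place. Whole pieces of intestine were used, so fewer cells of a type and less RNA per cell cannot be told apart.

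Gluconeogenesis makes glucose from lactate, amino acids and glycerol, and runs the glycolytic pathway backwards except at the irreversible steps, which have enzymes of their own. Pyruvate carboxylase (Pc) makes oxaloacetate in mitochondria, and phosphoenolpyruvate carboxykinase turns it into phosphoenolpyruvate in the cytosol (Pck1) or in mitochondria (Pck2). Fructose-1,6-bisphosphatase (Fbp1, the liver and kidney form, and Fbp2, the muscle form) removes a phosphate from fructose bisphosphate. The last step, release of free glucose from glucose 6-phosphate, takes place in the endoplasmic reticulum, where Slc37a4 carries glucose 6-phosphate in and the glucose-6-phosphatase catalytic subunit (G6pc) splits it. Liver and kidney are the main sites, and the small intestine of fasted rats is known to carry the same enzymes, with glutamine and glycerol as substrates. Pck1 and G6pc are known to be raised by fasting, glucagon and glucocorticoid signals and lowered by insulin.

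The values of each gene rest on the 60-base probes that read it. The probes of 3 genes that fell are shown 5′ to 3′ as the array files give them, with their place in the rat build rn4. Both Pck1 probes are shown, with the probe of Fbp1 and of G6pc that lies nearer to the start of the transcript. The Fbp1 probe A_44_P171995 (chr17:7813509-7815073, from base 872 of the transcript) and the Pck1 probe A_44_P414625 (chr3:164017138-164017330, from base 1546) span 1565 and 193 bases of the genome, more than the 60 of a probe, and so cross a splice junction. The Pck1 probe A_44_P517258 lies at chr3:164017597-164017656 (from base 1872) and the G6pc probe A_44_P384066 at chr10:90402888-90402947 (from base 887), each in 1 unbroken run.
Fbp1 A_44_P171995: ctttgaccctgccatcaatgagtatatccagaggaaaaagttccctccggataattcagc
Pck1 A_44_P414625: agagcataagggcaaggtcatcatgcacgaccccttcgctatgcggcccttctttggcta
Pck1 A_44_P517258: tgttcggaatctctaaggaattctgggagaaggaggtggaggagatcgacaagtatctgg
G6pc A_44_P384066: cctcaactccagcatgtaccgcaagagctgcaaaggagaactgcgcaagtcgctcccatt

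Of the other probes, Fbp1 A_43_P14969 (chr17:7817936-7817995) and Fbp2 A_42_P547847 (chr17:7841476-7841535) lie near each other, and the second G6pc probe, A_44_P330342, lies at chr10:90403940-90403999. The Pck2 probes A_43_P17580 and A_44_P1054280 start at bases 407 and 2070 of the transcript, on chromosome 15. The Slc37a4 probes A_43_P12602 (chr8:47369894-47369952) and A_44_P1023264 (chr8:47369914-47369973) overlap and are 1 reading rather than 2. Pc has 1 probe, A_42_P533312, at chr1:207212627-207212686.

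Pck1 and G6pc, the members that fell most, have long been studied for their promoters, and the 250 bases before each start site are shown from RefSeq (build GRCr8, plus strand). Capitals mark matches on either strand to TGACG (the half-site bound by CREB), TGTTTTG (the core of insulin response elements, bound by FOXO factors), an HNF1 site (by its name) and TATAAA (the TATA box); no match overlaps another.
Pck1 chr3:182348322-182348571: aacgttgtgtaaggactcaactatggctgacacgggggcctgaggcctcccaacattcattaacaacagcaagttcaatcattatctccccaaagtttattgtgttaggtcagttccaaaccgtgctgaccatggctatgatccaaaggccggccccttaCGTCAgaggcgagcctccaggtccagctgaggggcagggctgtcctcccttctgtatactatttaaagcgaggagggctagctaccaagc
G6pc1 chr10:86807409-86807658: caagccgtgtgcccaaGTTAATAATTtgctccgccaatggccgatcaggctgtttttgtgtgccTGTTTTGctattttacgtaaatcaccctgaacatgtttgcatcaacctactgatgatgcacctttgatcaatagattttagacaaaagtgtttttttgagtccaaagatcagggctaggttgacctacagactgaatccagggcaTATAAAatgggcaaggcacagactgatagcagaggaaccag
The Pck1 window held 1 match to TGACG, at position -90 from the start. The G6pc1 window held 1 match each to the HNF1 site (-234), TGTTTTG (-186) and TATAAA (-41). Over the 33469 promoter windows of the table, 18.2% held TGACG, 5.46% TGTTTTG, 0.323% the HNF1 site and 12.9% TATAAA. A match describes the letters only; binding was not measured.

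Values are log2 of the processed signal after quantile normalization between arrays, and differences between groups were tested with limma over all 15 arrays, with p-values adjusted by the Benjamini-Hochberg method over the 17029 tested probes; a probe is called when the adjusted p is under 0.05. On single arrays 66.7% to 74.8% of all probes were well above background. The arrays of Wistar replicate 3 and of GK-Sham-PF replicate 5 were dim, with 75th percentiles of the processed signal of 225 and 224 against 329 or more on the other 13. The arrays lay on 4 slides, of which 1 held 4 Wistar arrays, 1 held Wistar replicate 1 with GK-Sham-PF replicates 1 to 3, 1 held GK-Sham-PF replicates 4 and 5 with GK-S-30 replicates 1 and 2, and 1 held GK-S-30 replicates 3 to 5. GK-S-30 and Wistar arrays thus share no slide.

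In GK-S-30 vs GK-Sham-PF, 10 of the 12 probes, of 6 of the 7 genes, were called: G6pc, Pck1, Slc37a4, Fbp1 and Fbp2 fell and Pc rose. The 9 probes that fell compare with 3.59% of all tested probes called lower, and the 1 that rose with 4.77% called higher (8.36% called in either direction). The arrays of the 2 groups did not overlap for the same 10 probes, against 8.39% of all tested probes. The median log2 fold change over the 12 probes was -0.66, beside -0.023 over all tested probes. Both Pck2 probes were not called. In GK-Sham-PF vs Wistar, 2 of the 12 probes were called, 1 of Fbp1 and that of Pc, both lower, where 7.88% of all tested probes were called (3.74% higher, 4.14% lower). The arrays did not overlap for 3 probes, those of Pc, Fbp2 and Fbp1 A_43_P14969, against 9.04% of all tested probes. In GK-S-30 vs Wistar, 6 probes were called, all lower and all of Fbp1, Pck1 and Slc37a4, where 24.1% of all tested probes were called (11.9% higher, 12.2% lower). The arrays did not overlap for 6 probes, against 18.3% of all tested probes. These comparisons share arrays and are not independent of one another.

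**Figure D1:**
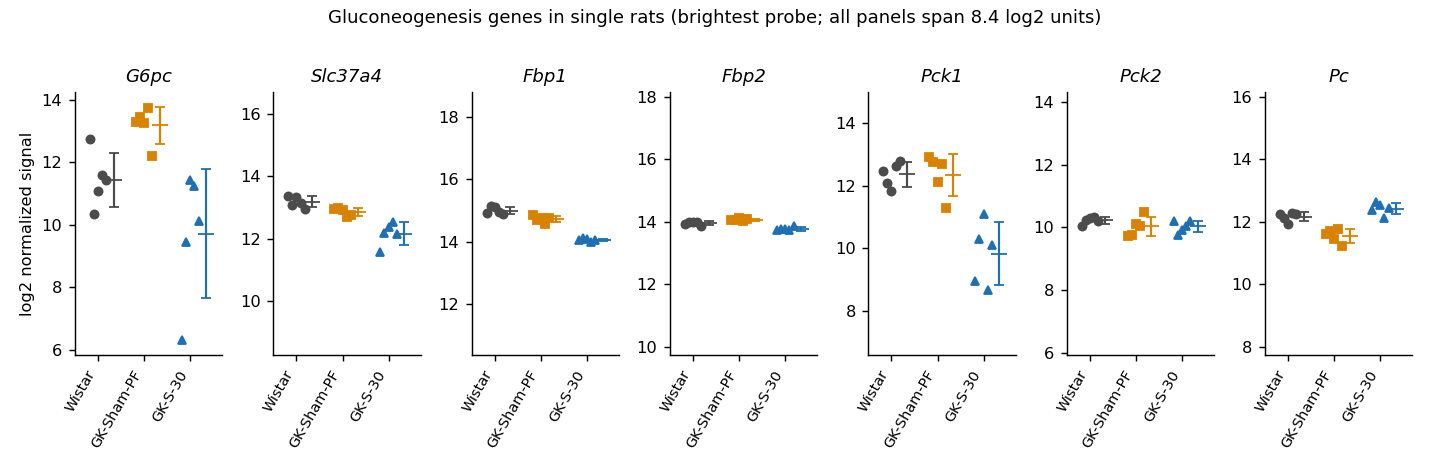
Log2 normalized signal (y axis) of each rat for the brightest probe of each gene, by group; points are single arrays and the bar beside them is the mean with 1 SD (n = 5). All panels span the same log2 range, so that the wide scatter of G6pc and Pck1 in GK-S-30 rats, the tight groups of Fbp1 and Fbp2, and the low values of Pc in GK-Sham-PF rats can be compared by eye.

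Pc, which opens the pathway from pyruvate, was the only member that rose in the RL. Its probe read 12.26, 12.13, 11.93, 12.28 and 12.23 in Wistar replicates 1 to 5. In GK-Sham-PF rats it read 11.61, 11.70, 11.43, 11.76 and 11.23. In GK-S-30 rats it read 12.38, 12.63, 12.52, 12.11 and 12.44. Every GK-Sham-PF array lay below every array of both other groups, while Wistar and GK-S-30 arrays overlapped. In GK-S-30 vs GK-Sham-PF, Pc was 1.83-fold higher (log2 fold change 0.87, SE 0.12, adjusted p = 0.000527) and 1.53-fold lower in GK-Sham-PF than in Wistar rats (log2 fold change -0.62, SE 0.12, adjusted p = 0.00418). For GK-S-30 vs Wistar the log2 fold change was 0.25 (95% interval -0.01 to 0.51, adjusted p = 0.149). The lowest group was thus GK-Sham-PF, and the order of the others was within their spread. On the slide that held both GK groups the difference was 1.01 with 2 arrays of each, and the rise stayed called when slide was fitted as a block (log2 fold change 1.01, adjusted p = 0.03). The block fit takes its difference from those same arrays, so it is not a separate check. Within the slide that held Wistar replicate 1, Pc was lower in the 3 GK-Sham-PF rats by -0.67, but with slide as a block GK-Sham-PF vs Wistar was no longer called (adjusted p = 0.328).

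Pck1, the cytosolic carboxykinase, fell in the RL on both of its probes. Probe A_44_P414625 read 11.72, 11.34, 11.05, 11.87 and 11.87 in Wistar rats. It read 12.08, 11.89, 11.15, 11.91 and 10.36 in GK-Sham-PF rats. In GK-S-30 rats it read 8.23, 9.52, 10.29, 7.98 and 9.20. The highest GK-S-30 array, replicate 3, lay just under the lowest GK-Sham-PF array, replicate 5, a dim array, and the other GK-S-30 arrays lay further down. The change from GK-Sham-PF to GK-S-30 was 5.41-fold (log2 fold change -2.44, SE 0.41, adjusted p = 0.00205) on this probe and 5.77-fold (-2.53, SE 0.42, adjusted p = 0.00192) on A_44_P517258. Against Wistar rats the same probes were 5.75-fold and 5.83-fold lower in GK-S-30 rats (adjusted p = 0.000394 and 0.000451). Wistar and GK-Sham-PF rats were not distinguished: the log2 fold changes were -0.09 (95% interval -0.96 to 0.78) and -0.02 (-0.91 to 0.88), and their sign changed with the setting, to 0.02 and 0.07 with array weights. The fall in the RL held in the same direction on the slide that carried both GK groups, by -2.26 and -2.36, but was not called with slide as a fixed block (adjusted p = 0.12 and 0.112).

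Probe A_44_P414625 is printed 10 times on each array, which gives the scatter between spots of 1 array. The 10 spots of an array had a coefficient of variation of 1.24% to 3.15% (median 2.20%) and lay within 0.05 to 0.15 log2 units of each other. The SD between rats was 0.36 for Wistar rats, 0.72 for the sham-operated rats and 0.95 for the RL on the normalized log2 scale. In each group the SD between rats was larger than the whole range of the 10 spots of any array. The spots share extraction, labelling and hybridization with their array, so they do not measure the error of those steps.

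**Figure D2:**
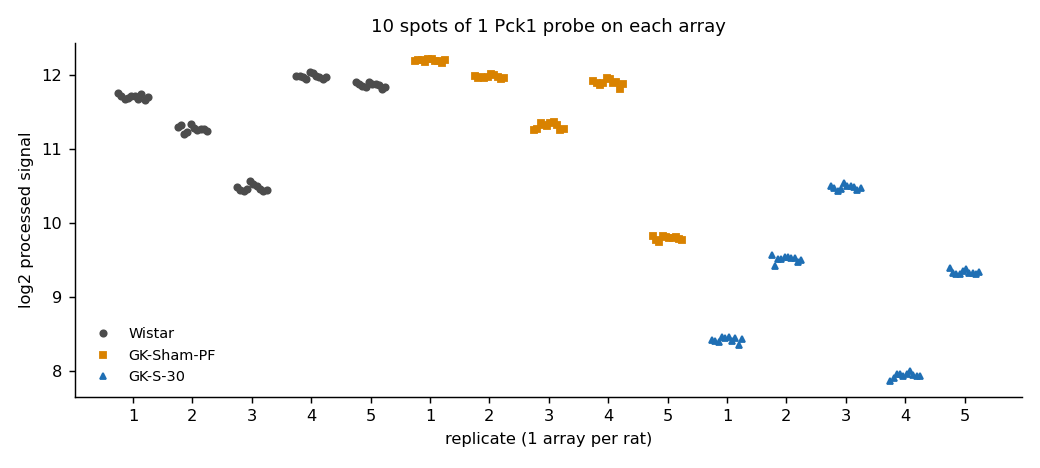
Log2 processed signal (y axis, before normalization between arrays) of the 10 repeated spots of the Pck1 probe A_44_P414625 on each of the 15 arrays (x axis, replicates of each group); each point is 1 spot. The spots of an array span at most 0.15 log2 units, while the arrays of a group lie further apart. Before normalization GK-S-30 replicate 3 lies above GK-Sham-PF replicate 5, a dim array; after it, just below.

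Pck2, the mitochondrial carboxykinase, was not called in any of the 3 comparisons. Its probe A_44_P1054280 ranged from 10.05 to 10.33 in Wistar, from 9.73 to 10.50 in GK-Sham-PF and from 9.75 to 10.21 in GK-S-30 rats. The groups overlapped throughout. For GK-S-30 vs GK-Sham-PF the 95% interval of the log2 fold change was -0.30 to 0.29 on this probe and -0.07 to 0.52 on A_43_P17580, whose fold change of 0.23 had an adjusted p of 0.372. The 2 probes followed each other less closely (Pearson r = 0.478 over the 15 arrays) than those of the other members with 2 probes (0.975 to 0.998), which is a description, since all points share the same arrays. Within each array, Pck1 fell relative to Pck2 by -2.53 from GK-Sham-PF to GK-S-30 rats (brightest probes; two-sided exact permutation test over all divisions of the arrays, p = 0.0159, Benjamini-Hochberg adjusted p = 0.0204 over the 9 pair differences tested).

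Fbp1 fell in the RL with little scatter between rats. The probe A_43_P14969 read 14.91, 15.15, 15.11, 14.96 and 14.89 in Wistar rats. In GK-Sham-PF rats it read 14.85, 14.69, 14.76, 14.56 and 14.76. In GK-S-30 rats it read 14.07, 14.11, 14.08, 14.00 and 14.05. On this probe the 3 groups did not overlap and stood in the order Wistar, GK-Sham-PF, GK-S-30. On the other probe, A_44_P171995, Wistar (10.89 to 11.17) and GK-Sham-PF arrays (10.64 to 10.95) overlapped. The SD of A_43_P14969 in GK-S-30 rats, 0.04, was smaller than that of all but 0.405% of tested probes in that group. The change from GK-Sham-PF to GK-S-30 was 1.58-fold (log2 fold change -0.66, SE 0.08, adjusted p = 0.000225) on A_43_P14969 and 1.57-fold (-0.65, SE 0.09, adjusted p = 0.000404) on the junction probe A_44_P171995. From Wistar to GK-S-30 the log2 fold changes were -0.94 (adjusted p = 9.05e-07) and -0.88 (adjusted p = 4.18e-06). The step from Wistar to GK-Sham-PF was smaller, -0.28 (adjusted p = 0.0488) and -0.23 (adjusted p = 0.146), and the call on the first probe was lost in 14 of the 15 fits that left out 1 array, all but that without GK-Sham-PF replicate 1. Within the slide of both GK groups Fbp1 was lower in GK-S-30 rats by -0.57 and -0.45, and with slide as a block the adjusted p was 0.057 and 0.112.

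Fbp2, known as the muscle form, changed little. Its probe ranged from 13.85 to 14.00 in Wistar, from 14.02 to 14.13 in GK-Sham-PF and from 13.73 to 13.87 in GK-S-30 rats. GK-Sham-PF arrays lay above those of both other groups, while GK-S-30 and Wistar arrays overlapped. The fall from GK-Sham-PF to GK-S-30 was 1.22-fold (log2 fold change -0.29, SE 0.07, adjusted p = 0.0176), and it stayed called without any 1 array. The call was lost with slide as a block (-0.30, adjusted p = 0.246), relative to epithelial markers (-0.24, adjusted p = 0.473), with 75th percentile scaling (-0.20, adjusted p = 0.223), with the replicate number as a block (-0.29, adjusted p = 0.0668) and with only the 2 groups fitted (-0.29, adjusted p = 0.0511). The log2 fold change was 0.11 for GK-Sham-PF vs Wistar (adjusted p = 0.451) and -0.19 for GK-S-30 vs Wistar (adjusted p = 0.0634). Within arrays, Fbp1 fell relative to Fbp2 by -0.37 from GK-Sham-PF to GK-S-30 and by -0.38 from Wistar to GK-Sham-PF (exact permutation p = 0.00794 for each, the smallest that 5 arrays against 5 can give, adjusted p = 0.0143).

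Slc37a4, which brings glucose 6-phosphate to the phosphatase, fell in the RL on both of its overlapping probes. Probe A_44_P1023264 read 13.38, 13.09, 13.34, 13.16 and 12.97 in Wistar rats. It read 12.96, 12.99, 12.93, 12.69 and 12.75 in GK-Sham-PF rats. In GK-S-30 rats it read 11.58, 12.20, 12.37, 12.55 and 12.14. All GK-S-30 arrays lay below those of the other groups, with replicate 1 the lowest, and Wistar and GK-Sham-PF arrays overlapped slightly. The fall from GK-Sham-PF was 1.62-fold (log2 fold change -0.70, SE 0.15, adjusted p = 0.011) and 1.57-fold (-0.65, adjusted p = 0.017) on A_43_P12602. Against Wistar rats it was 2.03-fold (-1.02, adjusted p = 0.00019) and 1.91-fold (-0.93, adjusted p = 0.00044). For GK-Sham-PF vs Wistar the log2 fold changes of -0.32 and -0.28 had adjusted p-values of 0.257 and 0.345. With slide as a block the fall from GK-Sham-PF was -0.83 and -0.77 (adjusted p = 0.06 and 0.0783). A Tukey test adjusted over probes did not call it either (adjusted p = 0.0556 and 0.0784).

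G6pc, the catalytic subunit of glucose-6-phosphatase, had the largest fall of the members from GK-Sham-PF to GK-S-30 rats and the largest SD of the members in Wistar and GK-S-30 rats; in GK-Sham-PF rats the SD of Pck1 was larger. Probe A_44_P330342 read 12.73, 10.33, 11.08, 11.58 and 11.42 in Wistar rats. In GK-Sham-PF rats it read 13.28, 13.45, 13.26, 13.74 and 12.19. In GK-S-30 rats it read 6.32, 9.44, 11.43, 11.23 and 10.11. GK-S-30 replicate 1 was far below the rest of its group, all GK-S-30 arrays lay below all GK-Sham-PF arrays, and Wistar arrays overlapped with both. The mean of Wistar rats was 11.43 ± 0.87, that of GK-Sham-PF rats 13.18 ± 0.59 and that of GK-S-30 rats 9.71 ± 2.06 (SD, n = 5). The SD in GK-S-30 rats was larger than that of nearly every tested probe in that group, and those of Wistar and GK-Sham-PF rats exceeded those of 98.7% and 94.9% of tested probes.

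From GK-Sham-PF to GK-S-30, G6pc was 11.1-fold lower on A_44_P330342 (log2 fold change -3.48, SE 0.76, adjusted p = 0.011) and 11.5-fold lower on A_44_P384066 (-3.52, SE 0.73, adjusted p = 0.00821). Without GK-S-30 replicate 1 the falls were 6.19-fold (-2.63) and 6.66-fold (-2.74), and both stayed called. With a Tukey test adjusted over probes both calls were lost (adjusted p = 0.079 and 0.0656). The spot of A_44_P384066 on the array of GK-S-30 replicate 1 was the only member spot not well above background. With a different background correction (normexp, with 50 added to each signal) the log2 fold change of this probe was -1.79 in place of -3.52. A constant added to the signal shrinks the fold changes of dim probes most, and this probe averaged 5.31 in GK-S-30 rats. The effects of the correction and of the constant were not separated. At -1.79 the fall was smaller than that of Pck1 under the same setting (-2.21 and -2.42). The brighter G6pc probe, A_44_P330342, was at -3.20 with normexp, a larger fall than that of Pck1. On the slide that carried both GK groups, which holds GK-S-30 replicate 1, the differences were -5.09 and -5.15. The fall stayed called with slide as a block, a fit that takes its difference from that slide (adjusted p = 0.00816 and 0.00587). GK-Sham-PF rats read 3.38-fold and 3.44-fold above Wistar rats, which was not called (log2 fold change 1.76, 95% interval 0.15 to 3.36, adjusted p = 0.205; 1.78, 0.23 to 3.34, adjusted p = 0.178). Leaving out GK-S-30 replicate 1, which enters that test through the shared spread, brought both probes past the threshold (adjusted p = 0.0268 and 0.0306). GK-S-30 vs Wistar was not called (log2 fold change -1.72 and -1.74, adjusted p = 0.113 and 0.0982); without GK-S-30 replicate 3 the second probe was called (adjusted p = 0.037), and without replicate 1 the fold changes were -0.87 and -0.95. The rise from Wistar to GK-Sham-PF was also called on both probes when only these 2 groups were fitted (adjusted p = 0.025 and 0.019) and with array weights (0.041 and 0.033), and on A_44_P384066 with normexp (0.0194). Within the slide that held Wistar replicate 1, G6pc was higher in the 3 GK-Sham-PF rats by only 0.60 and 0.65. With slide as a block neither probe was called in GK-Sham-PF vs Wistar. The order of the means was GK-Sham-PF, Wistar and GK-S-30, and whether Wistar differed from GK-Sham-PF depended on the fit.

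G6pc3, the widely expressed relative of G6pc, was not called in any comparison, with a log2 fold change of 0.03 from GK-Sham-PF to GK-S-30 rats (95% interval -0.20 to 0.25). Within arrays, G6pc fell relative to G6pc3 by -3.50 in that comparison (exact permutation p = 0.00794, adjusted p = 0.0143). The same difference was 1.70 for GK-Sham-PF vs Wistar (exact permutation p = 0.0159, adjusted p = 0.0204) and -1.80 for GK-S-30 vs Wistar (p = 0.0873, adjusted p = 0.0982). The last of these did not pass, and these permutations took no account of slide. Their adjustment covers only the 9 pair differences. G6pc itself was not called in GK-Sham-PF vs Wistar in the main limma fit over all tested probes.

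**Figure D3:**
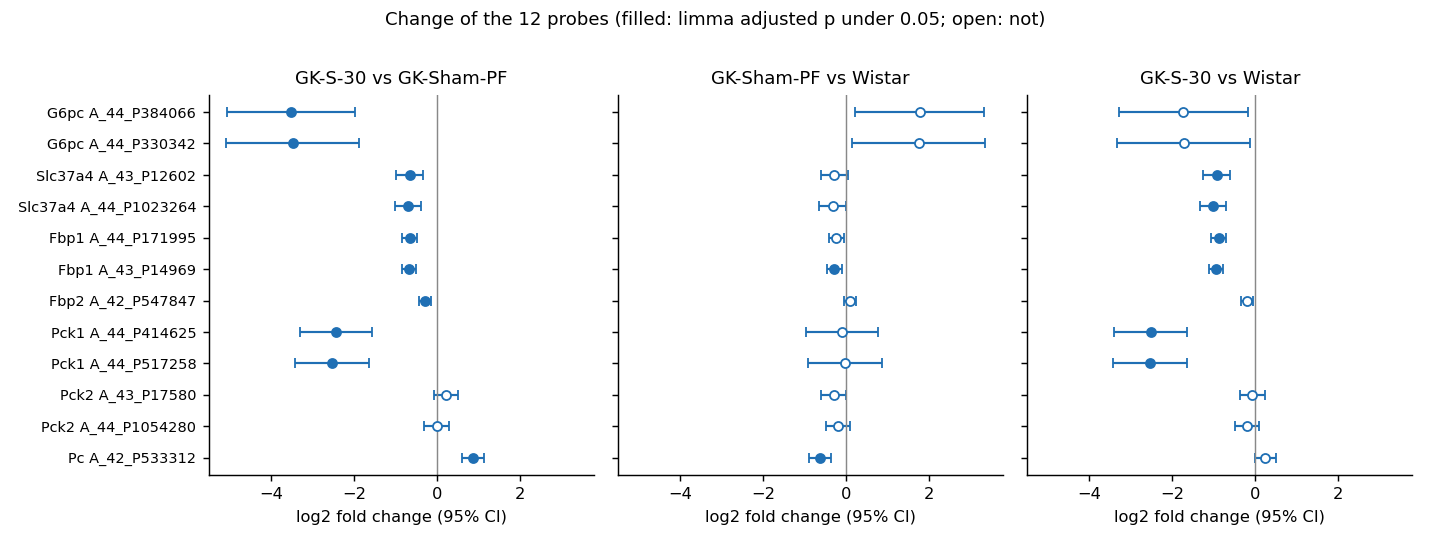
Log2 fold change (x axis) of each of the 12 probes in the 3 comparisons, with its 95% interval from the limma fit over 15 arrays; filled points passed an adjusted p of 0.05. Pairs of probes of 1 gene lie close together, G6pc and Pck1 lie furthest to the left in GK-S-30 vs GK-Sham-PF with the widest intervals, and Pc lies to the right of 0 there and to the left of 0 in GK-Sham-PF vs Wistar.

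The scatter between rats differed among the members. In GK-S-30 rats the SDs of Pck1 exceeded those of 98.9% and 99.1% of tested probes, and the SDs of both Slc37a4 probes those of about 82% (82.0% and 81.6%), whereas Fbp2 had a smaller SD than nearly all probes (1.76% were smaller). The median SD over tested probes was 0.22 in each group. Within GK-S-30 rats the lowest array differed by gene: replicate 1 was lowest for G6pc and Slc37a4, and replicate 4 for Pck1, Fbp1 A_43_P14969 and Pc, while replicate 3 was highest for G6pc and for Pck1.

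The genes whose pattern over the 15 arrays was most like that of a member were sought among 12999 other genes, by Pearson r of the brightest probes, which follows the group differences as well as the scatter within groups. For Fbp1 they were C8g (r = 0.981), Grk4 (0.958) and Akr7a2, an aldehyde reductase (0.957). C8g, a complement component, had a mean level of 11.57 in Wistar rats, of 10.76 in GK-Sham-PF rats and of 8.94 in GK-S-30 rats. For Pck1 they were Creb3l3 (0.926), a transcription factor of liver and intestine that responds to fasting, Gpcpd1 (0.922) and Hibch (0.907), an enzyme of valine breakdown. For G6pc they were Ammecr1l (0.928), Pdk4 (0.919) and Apol3l1 (0.916). Pdk4, the kinase that shuts pyruvate dehydrogenase in fasting, had a mean level of 12.59 in Wistar rats, of 13.33 in the sham-operated rats and of 12.24 in the RL.

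The other genes around the pathway were read from 9 lists with 81 genes, of which 73 had a tested probe. In GK-S-30 vs GK-Sham-PF, 7 rose and 3 fell, or 13.7% called where 9.12% of all tested genes were (4.93% higher, 4.19% lower; brightest probes), and their median log2 fold change was 0.02. In GK-Sham-PF vs Wistar, 3 rose and 1 fell (5.48%, against 8.39% of all tested genes, 3.96% higher and 4.43% lower). In GK-S-30 vs Wistar, 16 rose and 9 fell (34.2%, against 25.5%, 12.0% higher and 13.5% lower).

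Of the 12 enzymes that glycolysis and gluconeogenesis share, 2 rose in GK-S-30 vs GK-Sham-PF and none fell: Aldoc, an aldolase (log2 fold change 0.86, adjusted p = 0.00795), and Pgk1, phosphoglycerate kinase (0.79, adjusted p = 0.0436, a call kept in 2 of 15 fits without 1 array). In GK-Sham-PF vs Wistar 1 of the 12 rose, Eno2 (0.58, adjusted p = 0.00836). Another list held 13 glycolytic enzymes and regulators: the hexokinases, phosphofructokinases, pyruvate kinases and the bifunctional regulators. Of these 13, 2 rose in the RL and none fell. Hexokinase Hk1 rose 1.81-fold (0.85, adjusted p = 0.00176), with GK-S-30 arrays between 9.31 and 10.02 and GK-Sham-PF arrays between 8.56 and 8.91. Pfkl, a phosphofructokinase, had a log2 fold change of 0.68 (adjusted p = 0.0376) over 4 GK-Sham-PF arrays, because the spot of replicate 3 was marked as an outlier. The call was kept in 7 of 15 fits without 1 array, and with that spot kept the value was -0.03. None of the 13 was called in GK-Sham-PF vs Wistar. Of the 2 tested phosphatase and transporter relatives, G6pc3 and Slc37a1, neither was called in GK-S-30 vs GK-Sham-PF or in GK-Sham-PF vs Wistar, and Slc37a1 was higher in GK-S-30 vs Wistar (0.62, adjusted p = 0.0317).

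Among genes that supply precursors, 1 of 14 in the lactate, alanine and aspartate list rose in the RL, the aspartate aminotransferase Got1 (0.38, adjusted p = 0.0312, a call kept in 8 of 15 fits without 1 array), and none was called in GK-Sham-PF vs Wistar. Of 6 genes of glutamine use, 1 rose in the RL, the glutaminase Gls2 (0.65, adjusted p = 0.00241), whose GK-S-30 arrays (7.72 to 8.31) lay above the others. Of 7 tested genes of glycerol and fructose use, 1 fell in the RL, ketohexokinase Khk (-0.95, adjusted p = 0.00626), from between 13.03 and 13.60 in GK-Sham-PF to between 11.76 and 12.94 in GK-S-30 rats. The glycerol channel Aqp3 rose 12.5-fold in GK-Sham-PF vs Wistar (3.65, adjusted p = 8.4e-08), from 8.73 to 9.73 in Wistar to 12.64 to 12.88 in GK-Sham-PF rats. GK-S-30 rats read 11.38 to 12.71 on that probe, overlapping GK-Sham-PF rats and above all Wistar rats.

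Of 11 tested transcriptional regulators of the pathway, 2 fell in GK-S-30 vs GK-Sham-PF and none rose. Nr0b2 (SHP), a repressor induced by bile acids, fell 5.22-fold (-2.38, SE 0.43, adjusted p = 0.00351), and Cebpb, an activator of Pck1 in liver, fell by 0.57 on the log2 scale (adjusted p = 0.0451, a call kept in 4 of 15 fits without 1 array). The coactivator Ppargc1a had a log2 fold change of -0.42 (95% interval -0.95 to 0.10), Foxo1 of 0.39 (adjusted p = 0.0992), Hnf4a of 0.41 (adjusted p = 0.194) and Crtc2 of -0.39 (adjusted p = 0.138), and none of these passed. None of the 11 was called in GK-Sham-PF vs Wistar. Of 4 tested genes of the insulin and glucagon signal, none was called in the RL and Irs2, an insulin receptor substrate that rises in fasting liver, rose in GK-Sham-PF vs Wistar (0.69, adjusted p = 0.0262, a call kept in 9 of 15 fits without 1 array). Of 4 glucose transporters, Slc2a1 rose in the RL (2.34-fold, 1.23, adjusted p = 0.00473). Slc2a2, through which glucose leaves the enterocyte, had a log2 fold change of -0.62 that did not pass (adjusted p = 0.109), and Slc5a1, the apical glucose carrier, one of -0.03 (95% interval -0.37 to 0.32). With slide as a fixed block, Hk1, Khk and Slc2a1 stayed called in GK-S-30 vs GK-Sham-PF. The calls of Nr0b2 (adjusted p = 0.0507), Gls2 (0.0636), Aldoc (0.0907), Pgk1, Pfkl, Got1 and Cebpb were lost. In GK-Sham-PF vs Wistar that block kept the call of Aqp3 and lost those of Eno2 and Irs2.

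**Figure D4:**
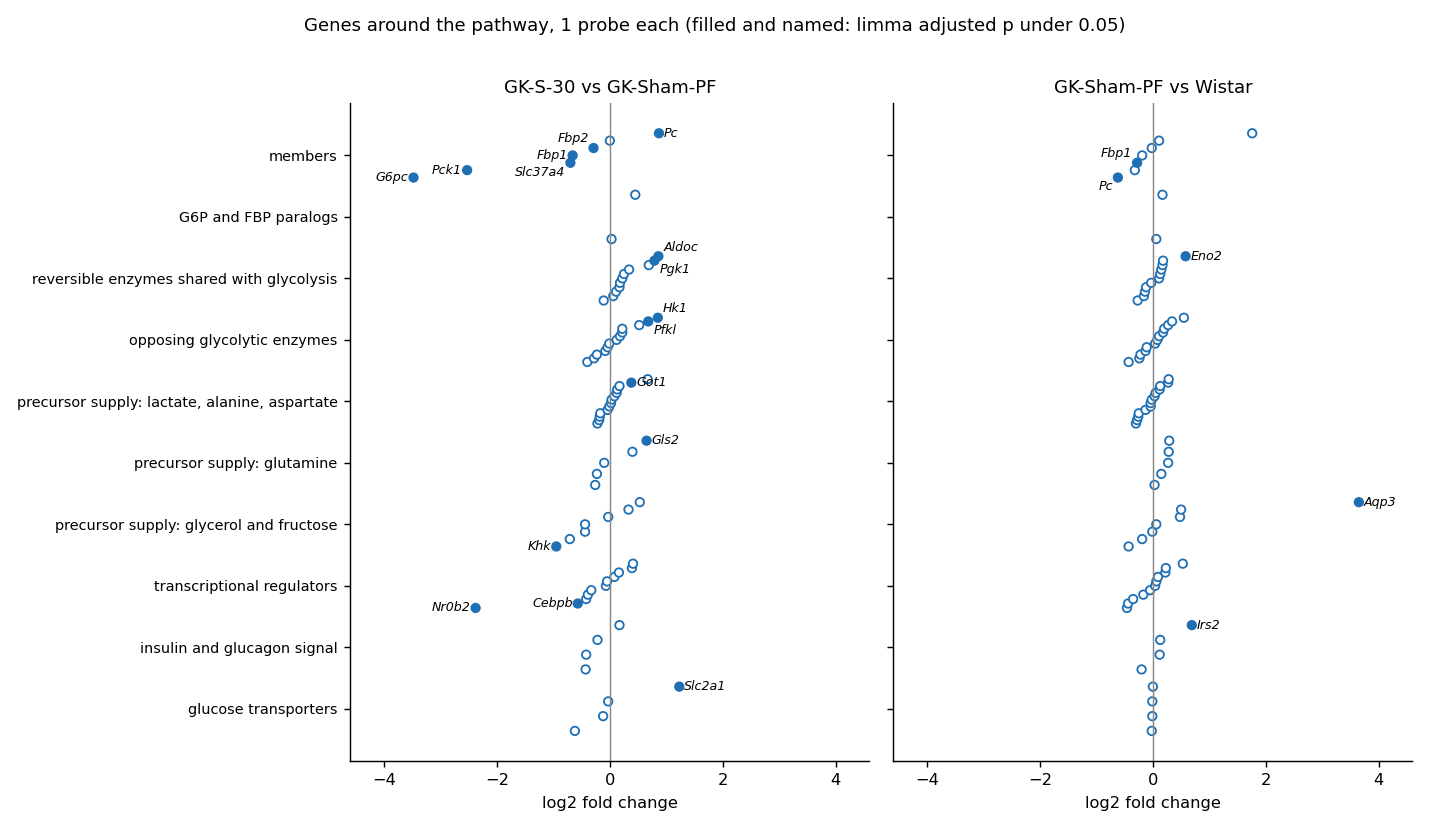
Log2 fold change (x axis) of the 7 members (brightest probe) and of the tested genes reported here from the 9 lists, 1 point per gene, for GK-S-30 vs GK-Sham-PF and GK-Sham-PF vs Wistar; filled, named points passed an adjusted p of 0.05 in limma. In GK-S-30 vs GK-Sham-PF 5 of the 6 called members lie to the left of 0 and 7 of the 10 called genes of the lists to the right.

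The cells in the samples were read from lists of marker genes. Of 14 tested epithelial markers, all well above background on all 15 arrays, 1 rose (Krt19) and 1 fell (Mttp) in GK-S-30 vs GK-Sham-PF, with a median log2 fold change of -0.03; their mean level ranged from 15.15 to 15.66 in Wistar, from 15.16 to 15.68 in GK-Sham-PF and from 15.24 to 15.56 in GK-S-30 rats. Of 8 tested smooth muscle markers, 4 rose (Actg2, Des, Tagln and Cnn1) and none fell, with a median of 1.14; their mean level was 12.00 to 12.35 in GK-S-30 rats, above the 10.60 to 11.66 of GK-Sham-PF and the 10.76 to 11.49 of Wistar rats. With values taken relative to the epithelial markers, G6pc, Pck1, Slc37a4 and Fbp1 stayed called lower and Pc higher in GK-S-30 vs GK-Sham-PF, and Fbp2, at -0.24 beside -0.29, was not called. Whether muscle content has a part in the falls was not tested. Liver is a main site of the pathway, and its 10 marker genes were mixed here. F2, Serpina1 and Cps1 were well above background on all 15 arrays, Fga and Fgb on 14, Hpx on 13, Alb on 11, Ahsg on 4, Cyp2e1 on 2 and Tat on 1. Cps1, which the intestine also expresses, had the highest mean level (8.50) and Alb one of 4.28. The mean level of the 7 tested liver markers ranged from 5.42 to 6.14 in Wistar, 5.55 to 6.22 in GK-Sham-PF and 5.46 to 6.69 in GK-S-30 rats. One of them, F2, rose in the RL.

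For the other marker lists the median log2 fold change in GK-S-30 vs GK-Sham-PF was -0.65 for 6 adipocyte genes (none called), -0.01 for 6 skeletal muscle genes (1 rose, 1 fell), -0.08 for 4 acinar genes (1 fell), 0.40 for 8 enteroendocrine genes (3 rose), 0.41 for 5 goblet genes (1 rose), 0.26 for 7 proliferation genes (none called), -0.47 for 7 leukocyte genes (1 fell) and 0.08 for 2 blood genes (none called). In GK-Sham-PF vs Wistar, the liver marker Fga was higher (2.87, adjusted p = 0.00318), the liver marker Serpina1 (-0.75, adjusted p = 0.00711) and the leukocyte marker Itgam (-2.08, adjusted p = 6.43e-06) were lower, and no marker of the other lists was called. Their part in the members' values was not tested.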

How the data were processed

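Total intestinal RNA of 15 rats was hybridized to 1-colour Agilent rat arrays, 1 array per rat. Per the file headers, Feature Extraction 10.7.3.1 made the deposited spot intensities (mean signal and local background) and the processed signal, an intensity corrected for background and spatial trends but not scaled between arrays. The authors also deposited log2 values that were quantile-normalized between arrays, used here as an alternative. Outlier spots, marked by flags in the deposited files, were left out. Repeated spots were averaged, log2 of the processed signal was quantile-normalized, and the test took named probes that stood well above background throughout 1 group or more. Differences were fitted with limma 3.58.1 (R 4.3.3) over the 3 groups with 1 shared spread and no covariate, with Benjamini-Hochberg adjustment of the 17029 p-values (threshold 0.05). Differences between 2 genes within arrays were tested by exact permutation, which took no account of slide. Group and replicate came from the sample labels; the sources used here name rats, so each array was taken as 1 animal. The number of arrays limits the precision.

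The members and gene lists were chosen with earlier results of these data known. Named were all members, the called genes of each pathway list (up to 4 a list, by size of change), and the 3 genes most like Fbp1, Pck1 and G6pc; other pathway and marker genes were named after their values were seen. Some genes of the lists enter the counts but are not reported here. Levels of different probes were not compared. Alternatives covered the normalization, background correction, filters, probe choice, outlier spots, slide, replicate number, array weights, the methods' Tukey test, scaling to epithelial markers and leaving out each array; omission of both dim arrays was added after seeing the data. The scripts were tested on simulated data. Promoters came from a RefSeq table of build GRCr8 and were used for their letters only.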

Additional observations from a re-analysis of the deposited data

Results flagged for a closer look

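Of 75 group values checked, 5 had 1 array far from the other arrays of its group; chance gives about 1 in 20. Among the members, Fbp2 read 13.87 in GK-S-30 replicate 5 (the others 13.73 to 13.76), and Pck2 A_43_P17580 read 6.86 in GK-S-30 replicate 1 (the others 6.13 to 6.33). Among the pathway genes, Wistar replicate 3, a dim array, was lowest for Pfkl (7.43; others 8.25 to 8.54), Khk (13.06; others 13.48 to 13.64) and Pgk1 (12.35; others 13.35 to 13.57).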

How the results depend on the processing

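The 10 called member probes of GK-S-30 vs GK-Sham-PF stayed at 10 without any 1 array. They were 6 of 7 with 1 probe per gene and 3 with slide fixed as a block. With the Tukey test adjusted over probes they were 6, and the probes of G6pc and Slc37a4 were those lost. The 2 of GK-Sham-PF vs Wistar became 1 to 3 without 1 array (3 without GK-S-30 replicate 1, 2 without GK-Sham-PF replicate 1, otherwise 1), 1 with 75th percentile scaling, the authors' values, unnamed probes included, outlier spots kept, values relative to epithelium or both dim arrays left out, 4 with normexp or the unadjusted Tukey test, 6 with array weights and 0 with slide fixed. The 6 of GK-S-30 vs Wistar were 6 to 7 without 1 array, 3 of 7 with 1 probe per gene and 0 with slide as a fixed block. That block also cut the calls over all probes, to 327 from 1424 in GK-S-30 vs GK-Sham-PF, to 210 from 1342 in GK-Sham-PF vs Wistar and to 268 from 4101 in GK-S-30 vs Wistar, and only 4 GK-S-30 and GK-Sham-PF arrays share a slide. Array weights gave 2396, 3177 and 5452 calls.

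The called pathway genes were 10 in GK-S-30 vs GK-Sham-PF (6 to 13 without 1 array, 6 without GK-Sham-PF replicate 2; 3 with slide as a fixed block, 20 and 6 with the Tukey test unadjusted and adjusted), 4 in GK-Sham-PF vs Wistar (3 to 6 without 1 array; 1, 10 and 14 with slide, unadjusted Tukey and array weights) and 25 in GK-S-30 vs Wistar (21 to 31 without 1 array; 2 with slide).

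Values of Pck1 and Pck2 near 0 changed sign; the cause was not tested. Pck2 A_44_P1054280 in GK-S-30 vs GK-Sham-PF was 0.03212 with 75th percentile scaling, 0.0229 with normexp, 0.01829 with slide as a random block, 0.1747 with array weights, 0.04838 relative to epithelium and 0.1151 without the dim arrays, and -0.07804 to 0.1151 without 1 array. In GK-Sham-PF vs Wistar, Pck1 A_44_P414625 was 0.02477 with array weights, 0.06239 without the dim arrays and -0.2366 to 0.1918 without 1 array. Pck1 A_44_P517258 was 0.0005021 with normexp, 0.1061 with slide fixed, 0.07316 with array weights, 0.01569 relative to epithelium, 0.1127 without the dim arrays and -0.1549 to 0.2492 without 1 array. Pck2 A_43_P17580 in GK-S-30 vs Wistar was 0.2855 with slide fixed, 0.01805 relative to epithelium and -0.1844 to 0.01681 without 1 array. The called value of Pfkl in GK-S-30 vs GK-Sham-PF (0.68) was -0.06425 with normexp, -0.02694 with the authors' values and -0.02678 with the outlier spot kept, which is the spot that sets it.

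Same-numbered replicates did not deviate together (r from -0.291 to 0.202), so no pairing by number was seen. A weak pairing could be missed by this check. With the replicate number as a replicate block, 9, 1 and 6 member probes and 9, 4 and 21 pathway genes were called in the 3 comparisons, in the order above.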
